A study of Homo sapiens with 6 samples.

Results

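The genes described here are 41 named parts of the machinery that folds proteins in the endoplasmic reticulum (ER), removes those that fail to fold, and senses the load. They were chosen by symbol and sorted by role into 4 sensors, 14 chaperones and their helpers, 10 disulfide enzymes and 13 genes of ER-associated degradation (ERAD). Of these, 38 had at least 1 probe set that the array annotation pairs with their symbol alone, 95 probe sets in all, out of 19775 genes and 54675 probe sets on the array. The other 3, PDIA5, TXNDC5 and SYVN1, were read only by probe sets with several symbols and were not analysed here. All 38 passed the filter on dim genes, and so belong to the 12939 genes tested.

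The RNA came from MM1.S, an established human multiple myeloma line, a tumour of antibody-secreting plasma cells. Cells were infected with a lentivirus for an shRNA that was either a control or aimed at beta-catenin (CTNNB1), in a vector the titles call pKLO, and GFP-positive cells were sorted, so both groups carried a virus and GFP. There were 3 control and 3 knockdown cultures on 1 Affymetrix array each. The titles call the arrays of each group biological replicates. The labels speak of triplicate culture and of no separate infections, and they name no hairpin number. The p-values therefore measure the spread between these cultures, which may be technical if they came from a single infection.

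Values are the deposited log2 levels, which end in a floor at 4. A change is knockdown minus control on that log2 scale, and a gene is called where its adjusted p is under 0.05 in limma, a linear model fitted over all genes tested. Each gene is read by its probe set with the highest mean over the 6 arrays unless another is named. CTNNB1 itself changed by −1.33 (SE 0.10) from a control mean of 7.75 (limma, adjusted p = 9.04e-12). Its other probe sets gave 0.33 and −0.07, and the mean over the 3 changed by −0.36. The probe set at 0.33 was called higher (limma, adjusted p = 0.0390 over all probe sets), so CTNNB1 had calls in both directions. Array medians ran from 5.44 to 5.50 in the controls and from 5.50 to 5.54 in the knockdown. All 8 plasma cell markers examined lay above the filter, and their mean level was 9.27 to 9.38 in control and 9.49 to 9.56 in knockdown arrays. CD38, SLAMF7, PRDM1 and MZB1 were called higher, by 0.39, 0.80, 0.51 and 0.82, and XBP1 was not called. SDC1, IRF4 and TNFRSF17 were called lower, at −0.20, −0.23 and −0.32, though IRF4 changed by −0.03 with the mean over probe sets. The SDC1 call was lost without control replicate 1, knockdown replicate 1 or knockdown replicate 3 (limma, adjusted p = 0.0568, 0.107 and 0.160). It was also lost with the replicate number as a block (limma, adjusted p = 0.0935), and held in 10 of 15 alternative settings. Over those settings the SDC1 change ran from −0.84 to −0.16. Of 25 markers of B, T and NK, myeloid, fibroblast and erythroid cells, 21 had a probe set and 11 lay above the filter. The mean level of the B cell markers was 6.20 to 6.33 in control and 6.24 to 6.31 in knockdown arrays. That of T and NK cell markers was 5.11 to 5.15 and 5.16 to 5.22, of myeloid markers 5.58 to 5.75 and 5.64 to 5.85, of fibroblast markers 6.28 to 6.41 and 6.35 to 6.42, and of erythroid markers 6.80 to 7.09 and 7.07 to 7.11. PAX5 and MS4A1 of the B cell list, CD3E of the T and NK list and CD14 of the myeloid list lay below the filter. Other members lay above it, with control means of 7.66 for CD22, 6.99 for BCL11A, 6.18 for CD3D, 6.74 for LYZ, 5.69 for MPO and 5.52 for CSF1R. HBB, at 8.86, was the brightest of them, and the erythroid mean rests on 2 markers with a probe set. The fibroblast markers COL1A1, DCN, COL1A2 and LUM had control means of 7.91, 6.70, 5.92 and 5.84. Among these 25 markers, CSF1R and HBB were called, both higher, by 0.31 and 0.24, and none lower. Both calls were lost with the replicate number as a block (limma, adjusted p = 0.0553 and 0.0572) and without control replicate 2 (0.0854 and 0.0873), knockdown replicate 1 (0.162 and 0.0719) or knockdown replicate 3 (0.0867 and 0.0759). That of CSF1R was also lost without control replicate 1 (0.0527) and that of HBB without control replicate 3 (0.138). The ribosomal RNA control probe sets of the array averaged 9.02 in control and 9.92 in knockdown arrays. The part of these differences in the results was not tested.

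Secretory cells such as plasma cells push large amounts of antibody through the ER, where chaperones hold nascent chains, disulfide enzymes join their cysteines, and ERAD sends failed chains to the cytosol for destruction. When unfolded proteins build up, the membrane sensors IRE1 alpha, PERK and ATF6 start the unfolded protein response (UPR). IRE1 alpha splices the XBP1 mRNA, PERK slows translation and favours ATF4, and ATF6 is cut in the Golgi to free a transcription factor. Together these raise the genes of folding and ERAD.

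Most of this machinery was higher in the knockdown cultures. Of the 38 genes tested, 28 were called higher, 3 lower, and 7 were not called. Over all genes tested, 47.3% were called, 25.3% higher and 22.0% lower, so 73.7% of these genes higher stands well above that background. Their median change was 0.67, against 0.05 over all genes tested. At least 2-fold rises were found for 9 of the 38 genes, where the share over all genes tested was 2.74%. RNA was measured over many sorted cells at once, so a change in RNA per cell and a change in the share of cells of a kind cannot be told apart. In 31 of the 38 genes every knockdown array lay above every control array, against 29.9% of all genes tested, and in 3 every knockdown array lay below, against 24.5%. Over all genes tested the groups did not overlap in 54.4%. The genes were chosen with earlier results of these data known, so these counts are descriptions and no test of the set was made.

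**Figure D1:**
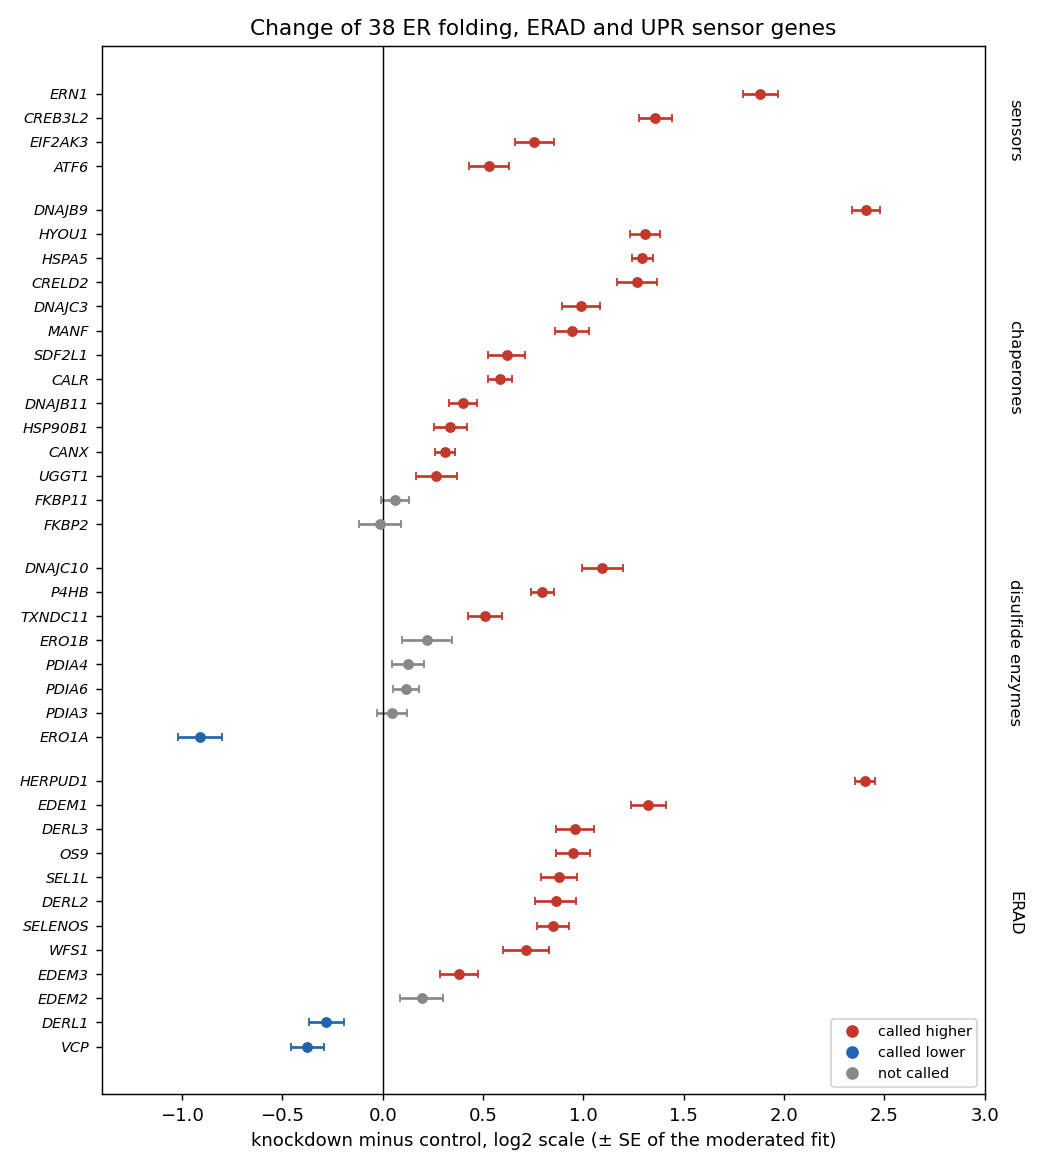
Change of each of the 38 genes between knockdown and control cultures (x axis, knockdown minus control on the log2 scale; bars are ± SE of the moderated fit, 3 arrays a group), sorted within the 4 roles; red marks genes called higher, blue called lower, grey not called. DNAJB9 and HERPUD1 stand farthest to the right at 2.41 and 2.40, all 4 sensors lie right of 0, and ERO1A lies farthest to the left at −0.91.

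On the brightest probe sets, counts and medians differed between the roles. All 4 sensors were called higher, with a median change of 1.06. Of 14 chaperones and helpers, 12 were called higher and 0 lower, with a median of 0.60. Of 12 ERAD genes tested, 9 were called higher and 2 lower, with a median of 0.86. The 8 disulfide enzymes tested had the lowest median, 0.17, with 3 called higher, 1 lower and 4 not called. These differences depend on the probe set read. With the mean over probe sets PDIA3, PDIA4, PDIA6 and ERO1B were called higher too, ERO1A was not called, and the 4 sensors rose less. Whether the roles differ from each other was not tested.

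The promoters of these genes are shown here because the UPR is known to act through short DNA elements that were first described in promoters of this kind. RefSeq promoters (GRCh38.p14, 250 bases before to 50 after each gene's start, 300 in all) were at hand for 38 of the 41 genes, which are not the same 38 as those tested. They were searched on both strands for the ER stress response element ERSE, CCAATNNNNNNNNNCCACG, which ATF6 binds together with NF-Y. They were also searched for ERSE-II, ATTGGNCCACG, for the core of the UPR element UPRE, TGACGTGG, bound by XBP1 and ATF6, and for TGATGCAA, a core of the element that ATF4 binds with C/EBP proteins. An exact ERSE stood in 6 of the 38 promoters, against 27 of 35116 promoters in the whole table (0.0769%). With 1 mismatch allowed in the fixed letters these numbers were 13 of 38 and 545 of 35116 (1.55%). ERSE-II stood in 3 of 38 and in 19 of 35116 (0.0541%), the UPRE core in 4 of 38 and 256 of 35116 (0.729%), and the ATF4 core in 1 of 38 and 304 of 35116 (0.866%). The 38 are a single promoter of each gene, whereas the 35116 are all promoters listed. Because such elements were first described in promoters of this kind, these shares are descriptions and no independent support for the elements. The 6 exact ERSE promoters belong to the chaperones HSPA5, HSP90B1, CALR, CANX and CRELD2 and to the oxidase ERO1B. HSP90B1 holds it at 2 places. Turned to the ERSE strand, with the fixed letters in capitals, the matches read:
HSPA5: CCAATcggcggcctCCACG
HSP90B1, upstream match: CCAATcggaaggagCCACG
HSP90B1, downstream match: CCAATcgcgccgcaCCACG
CALR: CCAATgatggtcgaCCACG
CANX: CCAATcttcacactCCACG
CRELD2: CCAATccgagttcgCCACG
ERO1B: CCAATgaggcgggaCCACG

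The ERSE of HSPA5 begins 66 bases before the start site, at chr9:125241391-125241409 on the minus strand, and that of CRELD2 begins 80 bases before it, at chr22:49918554-49918572, on the strand opposite to the gene. The ERSE-II matches belong to HERPUD1, HYOU1 and SDF2L1. In HYOU1 it occurs at 2 places, and 1 of these overlaps a UPRE core. HYOU1 also holds an ERSE with 1 mismatch that begins 2 bases before the start site and runs past it, so it is left in lower case in the stretch printed for it. HERPUD1 is the single promoter of the set with the ATF4 core. The bases before the start site of 3 genes that rose at least 2-fold, with the matches in capitals, read 5′ to 3′ along the gene:
HSPA5, chr9:125241344-125241593, minus strand, ERSE in capitals: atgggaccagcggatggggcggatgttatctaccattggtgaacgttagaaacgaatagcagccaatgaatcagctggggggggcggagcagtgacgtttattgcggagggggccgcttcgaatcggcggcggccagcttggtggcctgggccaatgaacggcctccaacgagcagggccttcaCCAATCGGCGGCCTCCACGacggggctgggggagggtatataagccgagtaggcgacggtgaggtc
HERPUD1, chr16:56931892-56932141, plus strand, in order the ATF4 core (reversed), ERSE-II and an ERSE with 1 mismatch: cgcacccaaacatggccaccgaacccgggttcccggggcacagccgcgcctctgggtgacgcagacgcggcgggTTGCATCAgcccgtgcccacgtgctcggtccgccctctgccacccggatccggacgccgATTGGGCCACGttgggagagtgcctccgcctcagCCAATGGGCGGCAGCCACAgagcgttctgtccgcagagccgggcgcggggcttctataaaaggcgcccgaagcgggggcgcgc
HYOU1, chr11:119057206-119057455, minus strand, in order the UPRE core overlapping an ERSE-II (reversed), and an ERSE-II (reversed): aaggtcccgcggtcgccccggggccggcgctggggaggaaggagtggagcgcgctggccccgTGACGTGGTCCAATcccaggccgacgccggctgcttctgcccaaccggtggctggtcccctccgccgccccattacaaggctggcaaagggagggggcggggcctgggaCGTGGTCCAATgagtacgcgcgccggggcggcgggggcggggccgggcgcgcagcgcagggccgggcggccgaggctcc

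The changes of genes with and without an exact match are given side by side, and a link was not tested. Of the 9 tested genes with an exact ERSE or ERSE-II, 8 were called higher, with a median change of 0.62 and a range of 0.22 to 2.40. Of the 26 tested genes whose promoter had neither, 19 were called higher, with a median of 0.73 and a range of −0.91 to 2.41. Some of these 26 held an ERSE with 1 mismatch or a UPRE core. With 1 mismatch allowed, ERSE stood in 11 of 27 promoters of genes called higher, 0 of 2 lower and 1 of 6 not called. DNAJB9 and HERPUD1, whose rises of 2.41 and 2.40 lie within their errors of each other, differed in this window. DNAJB9 held none of the searched motifs, and neither did ERN1, EDEM1 or MANF, whereas HERPUD1 held 3, with 1 mismatch in its ERSE. HSP90B1, with its 2 exact copies, changed by 0.34 on the probe set read and by −0.36 on its second, so its direction rests on the probe set chosen. A match is a string of letters and not a measured binding site.

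The sensors were higher on every knockdown array than on any control array. ERN1, which encodes IRE1 alpha, the kinase and RNase that splices XBP1, read 8.25, 7.90 and 8.10 in the controls and 9.91, 10.02 and 9.97 in the knockdown. This is a rise of 1.88 (SE 0.09), or 3.69-fold (limma, adjusted p = 7.77e-17), far larger than the spread within either group. All 3 ERN1 probe sets were called higher, with the other pair at 0.78 and 0.44, and the mean over probe sets rose by 1.04. CREB3L2, an ATF6-like membrane factor cut in the Golgi that serves secretory capacity, read 8.33, 8.15 and 8.24 in the controls and 9.62, 9.65 and 9.52 in the knockdown. It rose by 1.36 (SE 0.08; limma, adjusted p = 4.55e-14) on this probe set, and its 2 dim probe sets gave 0.47 and 0.06, neither called over all probe sets. The mean over the 3 rose by 0.63. EIF2AK3, which encodes the eIF2 alpha kinase PERK, read 7.81, 7.73 and 7.98 against 8.54, 8.73 and 8.52. The gap between groups, 0.75 (SE 0.10; limma, adjusted p = 1.63e-07), was several times the SDs of 0.13 and 0.12. The mean with its second probe set, which lay below the filter, rose by 0.46. ATF6 had the smallest change of the sensors, 7.81, 7.65 and 7.75 against 8.30, 8.38 and 8.12, a rise of 0.53 (SE 0.10; limma, adjusted p = 4.53e-05). Of its 4 probe sets 2 were called higher, the others gave 0.04 and 0.21, and the mean rose by 0.33.

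**Figure D2:**
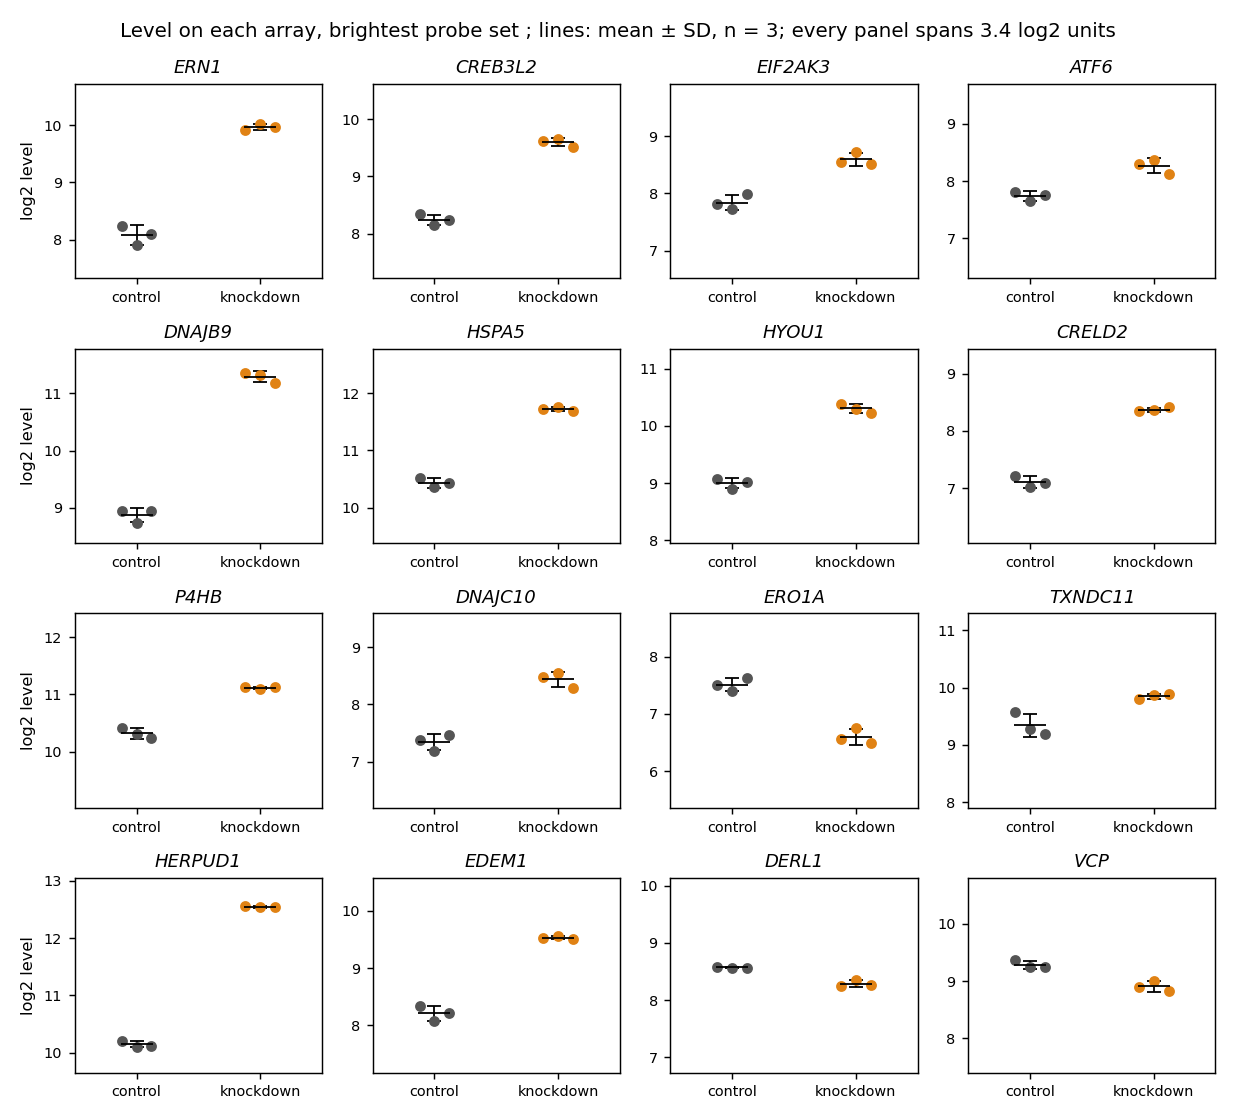
Log2 level on each array for 16 of the genes, 4 from each role, by the brightest probe set (grey, 3 control arrays; orange, 3 knockdown arrays; lines are mean ± SD, n = 3). The groups do not overlap in any panel; ERO1A, DERL1 and VCP are the panels in which the knockdown arrays lie below the controls.

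Among the chaperones, BiP and several factors that work with it had the smallest adjusted p-values, all with a rise. DNAJB9, a J-domain co-chaperone that holds IRE1 alpha in check through BiP, read 8.94, 8.74 and 8.95 in the controls and 11.36, 11.33 and 11.18 in the knockdown. The rise was 2.41 (SE 0.07), or 5.31-fold (limma, adjusted p = 2.07e-21), and its other probe sets gave 2.29 and 2.22. HSPA5, which encodes BiP, the ER's main Hsp70, read 10.52, 10.35 and 10.42 against 11.73, 11.76 and 11.69. It rose by 1.29 (SE 0.05), or 2.45-fold (limma, adjusted p = 5.38e-18), and a dim second probe set rose by 0.63. HYOU1, a large Hsp70 relative that exchanges nucleotide on BiP, rose by almost the same amount, from 9.07, 8.90 and 9.02 to 10.39, 10.30 and 10.23. Its change was 1.31 (SE 0.07; limma, adjusted p = 6.44e-15). CRELD2, an ER-resident protein induced by ER stress, read 7.21, 7.02 and 7.08 against 8.34, 8.37 and 8.41. It rose by 1.27 (SE 0.10; limma, adjusted p = 6.28e-12). MANF, a secreted protein that also binds BiP, read 9.06, 8.77 and 8.73 against 9.76, 9.83 and 9.80, a rise of 0.94 (SE 0.08; limma, adjusted p = 1.51e-10). In these 5 genes the lowest knockdown array lay above the highest control array by more than the whole range of the controls.

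Further co-chaperones of BiP also rose. DNAJC3, a J-domain protein that also inhibits PERK, rose by 0.99, and its 4 probe sets ranged from 0.91 to 1.15. SDF2L1, a partner of DNAJB11 that keeps clients soluble, rose by 0.62, and DNAJB11 by 0.40. The lectin arm, which holds glycoproteins for folding, had changes of 0.27 to 0.59. The soluble lectin CALR rose by 0.59, with its 3 probe sets at 0.59, 0.66 and 0.29. Its membrane relative CANX rose by 0.31, but this was called on 1 of its 5 probe sets, and the mean over them changed by 0.13 (limma, adjusted p = 0.204). When unmarked probe sets, those with neither _x_ nor _s_ in their name, took precedence, it changed by 0.02 (limma, adjusted p = 0.878). UGGT1, the folding sensor that sends glycoproteins back to the lectins, read 7.51, 7.26 and 7.47 against 7.74, 7.70 and 7.60. Its change of 0.27 was just called (limma, adjusted p = 0.0324), and none of its 5 probe sets was called when all probe sets were fitted. The UGGT1 call was lost without control replicate 2 (limma, adjusted p = 0.135), without knockdown replicate 1 (0.146) and without knockdown replicate 2 (0.0905). It was also lost with the replicate number as a block (0.0933), after centring on array medians (0.0748) and with the mean over probe sets (0.792).

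HSP90B1, the Hsp90 of the ER, rose by 0.34 on the probe set read (limma, adjusted p = 0.00133), while its second gave −0.36. Their mean, at −0.0092, passed no threshold (limma, adjusted p = 0.943). Both carry the _x_ mark that Affymetrix gives to probes shared with other transcripts. A further 2 probe sets pair HSP90B1 with a second symbol and were not read, so the direction of this gene rests on the probe set chosen. The prolyl isomerases were not called. FKBP2 changed by −0.01 and FKBP11 by 0.06, with SEs of 0.11 and 0.07, and in both the groups overlapped.

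Of the disulfide enzymes, P4HB, DNAJC10 and TXNDC11 rose, while the isomerases PDIA3, PDIA4 and PDIA6 were not called. P4HB, the founding protein disulfide isomerase, read 10.41, 10.31 and 10.24 in the controls and 11.12, 11.09 and 11.13 in the knockdown. It rose by 0.80 (SE 0.06), or 1.74-fold (limma, adjusted p = 2.06e-12), and its other probe sets gave 0.81 and 0.85. DNAJC10, a reductase that opens disulfides of ERAD clients, read 7.38, 7.18 and 7.47 against 8.48, 8.55 and 8.28. It rose by 1.10 (SE 0.10), or 2.14-fold (limma, adjusted p = 3.82e-10), and 4 of its 5 probe sets were called higher. The dimmest of these 4 had a control mean of 5.35, below the filter, and a knockdown mean of 6.07. TXNDC11, a membrane thioredoxin-domain protein, rose by 0.51 (SE 0.08; limma, adjusted p = 7.57e-06). Its controls were spread, at 9.56, 9.28 and 9.18, but all lay below the knockdown arrays at 9.80, 9.86 and 9.89.

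PDIA3, the isomerase that works with CALR and CANX, and its relatives PDIA4 and PDIA6 changed by 0.05, 0.13 and 0.12 on their brightest probe sets, none called. PDIA6 read 10.34, 10.22 and 10.14 against 10.37, 10.35 and 10.34, where the groups overlap. Each of the 3 had another probe set that was called higher when all probe sets were fitted, with changes of 0.73, 0.32 and 0.47 (limma, adjusted p = 0.00157, 0.00925 and 9.25e-05 over all probe sets). With the mean over probe sets all 3 were called higher (limma, adjusted p = 0.00584, 0.0158 and 0.00718), by 0.33, 0.22 and 0.21. PDIA6 was also called without control replicate 1 (change 0.17; limma, adjusted p = 0.0119). PDIA4 was called on its brightest probe set after quantile normalization (change 0.17; limma, adjusted p = 0.0465).

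The oxidases that recharge these isomerases were not called higher. ERO1A, the widely expressed form, read 7.50, 7.40 and 7.63 in the controls and 6.56, 6.75 and 6.48 in the knockdown. It fell by 0.91 on the log2 scale (SE 0.11), or 1.88-fold (limma, adjusted p = 3.93e-08), the largest fall of the 38 genes. This fall was seen on 1 of its 3 probe sets. The others gave 0.20 and 0.08, and the mean over the 3 changed by −0.21 (limma, adjusted p = 0.0921). ERO1B, known from secretory cells, lay near the filter at 5.52, 5.25 and 5.58 against 5.79, 5.62 and 5.60, and its change of 0.22 was not called (limma, adjusted p = 0.153). With the mean over its probe sets it was called, at 0.30 (limma, adjusted p = 0.0184).

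Among the ERAD genes HERPUD1 stood out. This membrane protein, which organises the ubiquitin ligase complex, read 10.20, 10.10 and 10.12 in the controls and 12.56, 12.54 and 12.54 in the knockdown. It rose by 2.40 (SE 0.05), or 5.29-fold (limma, adjusted p = 1.71e-25), with an SD of 0.02 among the knockdown arrays, and its second probe set rose by 2.54. EDEM1, a mannosidase-like factor that marks glycoproteins for disposal, read 8.33, 8.07 and 8.21 against 9.52, 9.56 and 9.52. It rose by 1.32 (SE 0.09), or 2.50-fold (limma, adjusted p = 1.28e-13). Its relatives EDEM3 and EDEM2 changed less, EDEM3 by 0.38 (limma, adjusted p = 0.00131) and EDEM2 by 0.19 (limma, adjusted p = 0.137). OS9, the lectin that reads the trimmed glycan, read 8.73, 8.53 and 8.44 against 9.51, 9.53 and 9.51, a rise of 0.95 (SE 0.08; limma, adjusted p = 1.45e-10). SELENOS, a selenoprotein that recruits VCP to the ER, read 8.80, 8.67 and 8.79 against 9.57, 9.68 and 9.57. It rose by 0.85 (SE 0.08; limma, adjusted p = 3.39e-10). SEL1L, the adaptor of the ligase SYVN1, rose by 0.88, with 3 of its 4 probe sets called higher. WFS1, an ER membrane protein reported to steer ATF6 to this ligase, rose by 0.71, and its second probe set by 0.70.

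The derlins, membrane proteins that carry clients out of the ER, did not all read alike. DERL3, the form typical of secretory cells, read 8.33, 8.01 and 7.99 against 9.08, 9.05 and 9.09. It rose by 0.96 (SE 0.09; limma, adjusted p = 9.73e-10), and DERL2 by 0.86 (SE 0.10; limma, adjusted p = 3.50e-08). Averaged over all their probe sets, dim ones included, they rose by 0.39 and 0.54. DERL1 fell by 0.28 on its brightest probe set, from 8.58, 8.56 and 8.56 to 8.25, 8.36 and 8.26 (limma, adjusted p = 0.00907). A pair of its other probe sets were called the opposite way, higher by 0.44 and 0.49 (limma, adjusted p = 0.00258 and 0.00666 over all probe sets). DERL1 is the 1 gene of the set with calls in both directions, so its probe sets disagree and no direction can be given for the gene. The fall was also lost without knockdown replicate 1 (limma, adjusted p = 0.0654).

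VCP, the ATPase that pulls clients from the membrane, was lower, from 9.37, 9.25 and 9.24 to 8.89, 9.01 and 8.82. The change was −0.38 (SE 0.08; limma, adjusted p = 3.28e-04). Its second probe set gave −0.15 and was not called, and the VCP call was lost when probe sets with neither _x_ nor _s_ in their name took precedence (limma, adjusted p = 0.203).

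**Figure D3:**
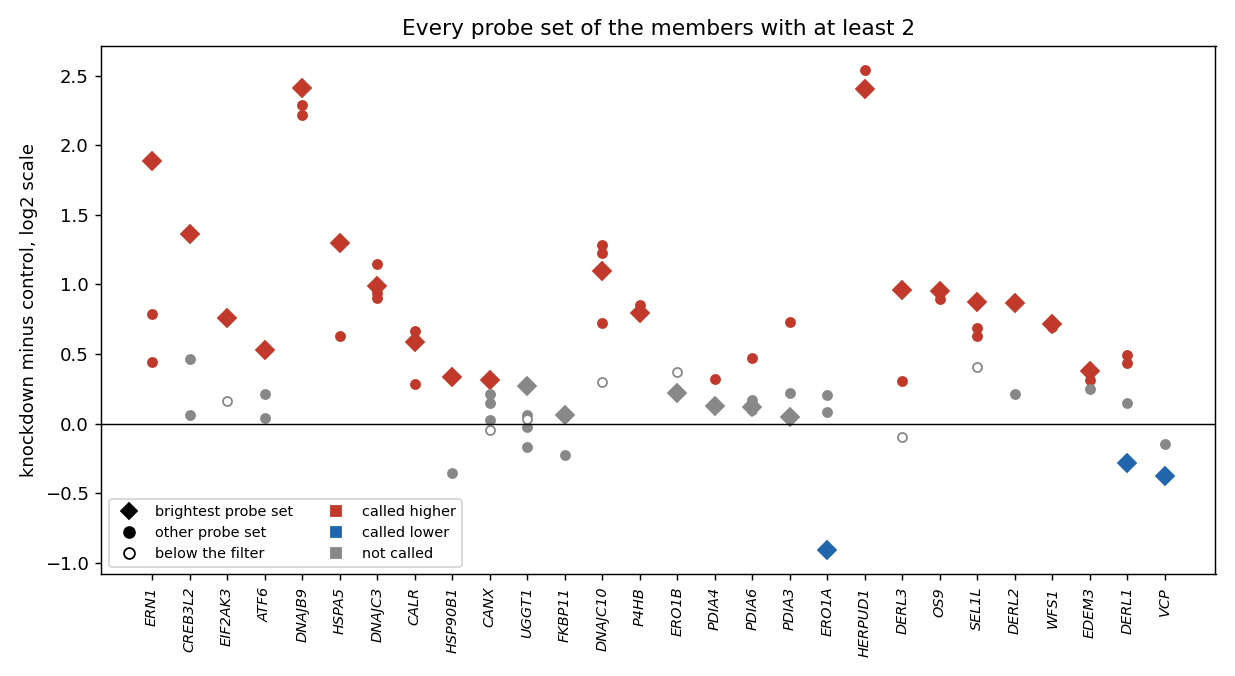
Change of every probe set (y axis, knockdown minus control on the log2 scale) for the genes with at least 2 probe sets; diamonds are the brightest probe set, circles the others, open circles those below the filter, and colours the call over all probe sets. DERL1 has a blue diamond at −0.28 and red circles at 0.44 and 0.49, and ERO1A has a blue diamond at −0.91 with grey circles at 0.20 and 0.08.

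Over the 95 probe sets of these genes, 55 were called higher, 3 lower and 37 not called, where the shares over all probe sets were 13.3% higher and 9.95% lower. The 3 lower ones were the brightest probe sets of ERO1A, DERL1 and VCP. Of the 38 genes, 26 had more than 1 probe set above the filter.

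The 4 lists of other ER genes, 119 symbols in all, show how far the pattern reached. Of the 105 tested, 40 were called higher and 22 lower, with a median change of 0.10. These shares, 38.1% and 21.0%, lie closer to the 25.3% and 22.0% over all genes tested than those of the 38 genes above do.

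Other UPR regulators were 10 higher and 1 lower of 18 tested. PPP1R15A, which directs a phosphatase back onto eIF2 alpha, rose by 2.86, the transcription factor DDIT3, known as CHOP, by 2.55 and ATF4 by 1.72 (limma, adjusted p = 4.04e-20, 7.25e-18 and 5.11e-18). NFYB, a subunit of the NF-Y factor that binds the CCAAT part of ERSE, fell by 0.44 (limma, adjusted p = 0.00172), a call lost with the mean over its probe sets (limma, adjusted p = 0.0676). XBP1, named outside the rule after its values were seen, changed by −0.11 and was not called (10.87 against 10.76; limma, adjusted p = 0.0946). It was called lower after centring on array medians (−0.17; limma, adjusted p = 0.0374). The spliced form of XBP1 was not analysed here.

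Other ER folding factors were 11 higher and 3 lower of 31 tested. MZB1, a plasma cell chaperone of immunoglobulin assembly, rose by 0.82, the Hsp70 relative HSPA13 by 1.09 and the BiP nucleotide exchange factor SIL1 by 0.77 (limma, adjusted p = 1.03e-11, 8.75e-10 and 4.46e-07). The thioredoxin-like TMX1, the LDL-receptor chaperone MESD and the vitamin K reductase VKORC1 fell by 0.65, 0.47 and 0.47 (limma, adjusted p = 2.30e-06, 5.66e-05 and 1.37e-04). The mean over the MESD probe sets changed by −0.25.

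Other ERAD factors were 11 higher and 9 lower of 32 tested, with a median of 0.03. FAM8A1, which assembles the SYVN1 ligase, rose by 1.38, and the ubiquitin-conjugating enzyme UBE2J1 by 0.67 (limma, adjusted p = 4.64e-11 and 7.86e-10). The ligase MARCHF6 rose by 0.85 (limma, adjusted p = 9.71e-10), but by 0.37 when its 6 probe sets were averaged, and it changed by −0.17 on its brightest unmarked probe set, one whose name carries neither _x_ nor _s_. The 3 lower members with the smallest adjusted p were UFD1, SVIP and NPLOC4. UFD1 and NPLOC4, which together form the adaptor of VCP for ubiquitinated clients, changed by −1.28 and −0.75 (limma, adjusted p = 4.74e-12 and 1.14e-06). SVIP, a small protein that inhibits VCP in ERAD, changed by −0.91 (limma, adjusted p = 1.82e-10). The 3 kept their direction and their call in all 15 alternative settings, though NPLOC4 changed by −0.48 with a larger offset and SVIP by −0.60 with the mean over probe sets. They do not stand for all factors of the list that bind VCP. Of 8 such factors tested, grouped by hand after their values were seen, 4 were called lower, 1 higher and 3 were not called. The shares over all genes tested were 22.0% lower and 25.3% higher. The group may leave out other factors that bind VCP. NGLY1, for one, stood outside it and was called higher, by 0.25 (limma, adjusted p = 0.0134). UBXN8 changed by −0.47 and UBXN4 by 0.29 (limma, adjusted p = 7.23e-04 and 0.0144), and UBXN1, FAF2 and YOD1 by 0.09, −0.22 and −0.14. FAF2 was called lower after quantile normalization, after centring and without control replicate 2 (limma, adjusted p = 0.0496, 0.0420 and 0.0341). The UBXN4 call was lost with the mean over probe sets (change 0.17; limma, adjusted p = 0.114) and without control replicate 2, control replicate 3, knockdown replicate 1 or knockdown replicate 2 (limma, adjusted p = 0.0626, 0.0647, 0.0612 and 0.0824). Centring on array medians also lost it (limma, adjusted p = 0.0526).

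Genes of N-glycan transfer and trimming were 8 higher and 9 lower of 24 tested. The oligosaccharyltransferase subunits DDOST, OSTC and RPN2, which transfer the glycan to the nascent chain, rose by 0.66, 0.50 and 0.46 (limma, adjusted p = 6.00e-10, 4.42e-08 and 1.15e-07). The listed subunits did not all change in the same direction. Of 10 oligosaccharyltransferase subunits tested, counted after their values were seen, 5 were called higher, 2 lower and 3 not called. The shares over all genes tested were 25.3% higher and 22.0% lower. RPN1 and DAD1 changed by −0.37 and −0.29 (limma, adjusted p = 2.24e-04 and 0.00389), STT3B and MAGT1 by 0.26 and 0.25 (limma, adjusted p = 0.0156 and 0.0195), and STT3A, OST4 and KRTCAP2 by −0.07, 0.05 and −0.0055. The calls of STT3B and MAGT1 were lost after centring on array medians (limma, adjusted p = 0.0576 and 0.0636). Both were also lost without knockdown replicate 2 (limma, adjusted p = 0.0973 and 0.119), and that of STT3B without control replicate 2 (0.1004) or knockdown replicate 1 (0.0637). With the replicate number as a block that of MAGT1 was lost (limma, adjusted p = 0.0713). Each of these calls held in 10 of 15 alternative settings. ALG3, ALG8 and ALG6, enzymes that build the glycan on its lipid carrier, changed by −1.06, −0.80 and −0.69 (limma, adjusted p = 6.32e-11, 2.76e-08 and 1.05e-05). Of the 7 ALG genes tested, 4 were called lower (22.0% over all genes tested), 1 higher (25.3%) and 2 were not called. ALG1 changed by −0.51 and ALG2 by 0.35 (limma, adjusted p = 5.04e-04 and 0.00478), and ALG5 and ALG9 by 0.16 and 0.08. ALG5 was called higher after quantile normalization (limma, adjusted p = 0.0131). The ALG2 call was lost with the mean over its probe sets (change 0.19; limma, adjusted p = 0.0865).

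**Figure D4:**
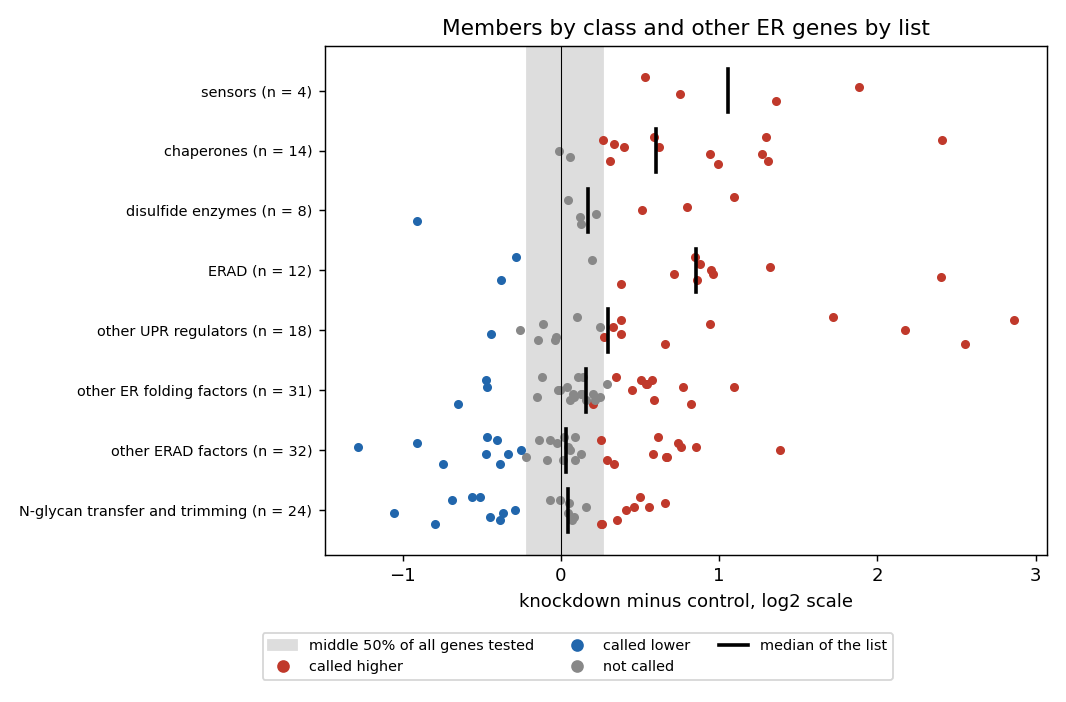
Change of each tested gene (x axis, knockdown minus control on the log2 scale) by role for the 38 genes and for the 4 lists of other ER genes; black bars are list medians, the grey band the middle 50% of all genes tested (−0.21 to 0.27), and colours the call. The medians of sensors, chaperones and ERAD genes, 1.06, 0.60 and 0.86, lie right of the band, those of the disulfide enzymes, other ER folding factors, other ERAD factors and N-glycan genes within it, and that of the other UPR regulators (0.30) just beyond it.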

How the data were processed

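RNA of 3 control and 3 knockdown cultures was measured on 1-colour Affymetrix arrays. The deposited values are log2 levels, 1 per probe set and array, whose floor at 4 is what log2(signal + 16) would give; a fold is thus on that scale and understates the change of dim genes. MAS5 and PLIER, a pair of summary methods, stand in the submitters' processing notes, and their roles are unknown here. Groups and replicate numbers came from the titles; a label that speaks of embryos contradicts the cell line and was not used.

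Values were used as deposited. Of 54675 probe sets, 62 control probe sets were left out. 41091 had 1 symbol, and 41037 of these were matched by gene ID to RefSeq. A gene was tested if its brightest probe set had a mean of at least 5.49, the median of all. Groups were compared with limma 3.58.1 (eBayes with an intensity trend, R 4.3.3); tests were two-sided, and Benjamini-Hochberg adjustment ran over 12939 genes or, for probe sets, over all of them. On simulated data with 3 arrays a group, 100 of 12939 genes were changed at each size. Of changes of 1 (log2) 96% were recovered, and of changes of 0.5, 50%. In the real data 6114 genes were called, so these shares do not give the recovery here. Precision is limited by the number of arrays. The promoter motifs searched are textbook consensus letters and were not read from the deposited files or RefSeq. The genes, lists and tests were chosen with earlier results of these data known. The rule gave values on every array for up to 5 genes a role by adjusted p and for those called against their role's majority, and up to 3 called genes a direction from each other list; the remaining per-array values were added after they were seen. Promoter motifs were matched letter by letter.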

Additional observations from a re-analysis of the deposited data

How the results depend on the processing

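Over 15 alternative settings the genes called higher numbered 27 to 30 of the 38. The number called lower was 3, except for 1 with the mean over probe sets, 0 when unmarked probe sets (neither _x_ nor _s_ in the name) took precedence, and 2 without knockdown replicate 1. The median change was 0.51 with that mean, 0.57 with that preference and 0.56 with an offset of 64 in place of 16. Leaving out 1 array at a time gave 27 to 29 genes higher, 2 to 3 lower and medians of 0.62 to 0.71. With the replicate number as a block 27 were higher and 3 lower, and 5494 genes were called in all against 6114. Deviations of same-numbered arrays correlated at −0.09, −0.26 and −0.30, which gives no sign of pairing. The labels name no pairing, and these correlations cannot decide it, since the deviations within each small group are tied to each other. Of the changes of single genes of the 38 over these settings, 540 kept their direction and side of the threshold, 11 lost the call, 8 gained one and 10 changed sign. The sign changes were FKBP2 at 0.0051 after quantile normalization, 0.12 without control replicate 1 and 0.024 without knockdown replicate 1; PDIA3 at −0.0076 after centring on array medians; HSP90B1 at −0.0092, FKBP11 at −0.034 and DERL1 at 0.20 with the mean over probe sets; ERO1A at 0.20 and DERL1 at 0.44 when probe sets without a mark were preferred; and FKBP11 at −0.0021 without knockdown replicate 2. Leaving out 1 array at a time, FKBP2 ran from −0.11 to 0.12 and FKBP11 from −0.0021 to 0.11. Of the genes named outside these 38, KRTCAP2 gave 0.014 after quantile normalization, 0.092 without control replicate 1 and 0.021 without knockdown replicate 3, OST4 −0.0048 after centring and −0.0076 without knockdown replicate 2, and ALG9 −0.018 without control replicate 2. Over the arrays left out, KRTCAP2 ran from −0.059 to 0.092, OST4 from −0.0076 to 0.10 and ALG9 from −0.018 to 0.16. XBP1 gave 0.018 with the mean over probe sets and MARCHF6 −0.17 with unmarked probe sets preferred. The cause of these differences was not tested beyond the probe set values given.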
